A study of Mus musculus with 8 samples.

Results

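The genes described here are 32 components of PI3K, Akt and mTOR signaling, chosen by name from the kinases, brakes and complex members of the pathway, of 49585 genes in the normalized-count table. They had 198 listed isoforms, and 129 of these averaged 10 normalized counts or more. RNA was sequenced from wild-type LEC, a line of mouse (C57BL/6) hepatic endothelial cells immortalized with SV40 and given as untreated, and from siL-DHX15-LEC, the same line carrying a lentiviral shRNA (SMARTvector) against Dhx15 under a Tet-On promoter that doxycycline switches on, with 4 libraries in each group. DHX15 is an RNA helicase that takes spliceosomes apart, and the comparison asks how its silencing changed the transcriptome of these cells. The samples include no control carrying an inert vector with doxycycline, and the 2 groups were run on different flow cell lanes, so vector, doxycycline, lane and silencing cannot be told apart. The labels do not say whether libraries of a group came from separate cultures, so the p-values measure the spread between these libraries, which may be technical.

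PI3K phosphorylates a membrane lipid in response to insulin, IGF and vascular growth factors, and the lipid recruits PDK1 and Akt to the membrane, where Akt is phosphorylated by PDK1 and by the mTORC2 complex. Akt then inhibits GSK3 kinases, holds FoxO transcription factors in the cytoplasm and blocks the TSC complex, which otherwise keeps the small GTPase Rheb, the activator of mTORC1, switched off. At the lysosome, amino acids act on mTORC1 through the Rag GTPases and their Ragulator anchor, and mTORC1 drives protein synthesis through S6 kinases and the 4E-BP repressors. Most of this control is by phosphorylation and location, which RNA counts do not measure.

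Dhx15 itself, the silenced gene, was at 27303 ± 797 normalized counts in wild-type LEC and 8968 ± 856 in siL-DHX15-LEC (SD, n = 4). The libraries held 77335734 to 152045693 recovered reads, the shallowest being siL-DHX15-LEC replicate 1. Of 14 endothelial markers, 9 had a mean below 10 normalized counts, among them Cdh5, Tek, Tie1, Erg and Emcn, whereas Kdr and Egfl7 had means above 100. Of 8 markers of liver sinusoidal endothelium 5 were below 10, and so were 4 of 6 of lymphatic endothelium. The defining markers of the labelled cell type were therefore absent or nearly so, and the cells are called LEC here as the labels do. Of 11 genes of stellate cells, fibroblasts and mesothelium 7 had a mean above 100 (summed level 108591 to 114697 in wild-type LEC and 113452 to 121174 in siL-DHX15-LEC). The 16 hepatocyte transcripts summed to 8174 to 8814 in wild-type LEC and 5447 to 6151 in siL-DHX15-LEC, and Alb was at 521 to 658 in the former and at 0 to 1.9 in the latter. Single mesothelial markers also moved, Krt19 to 150% and Upk3b and Wt1 to 66.3% and 78.4% of the wild-type mean (limma adjusted p = 3.5e-05, 6.4e-06 and 9.2e-05). Msln, a more abundant mesothelial marker than Upk3b and Wt1, was at 98.0% and did not pass (limma adjusted p = 0.62). The part of these markers in the results below was not tested.

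Few of the pathway's own components passed the test for a difference in RNA between siL-DHX15-LEC and wild-type LEC. Of the 31 members that could be tested, 2 fell (Pik3r3 and Rps6kb1), 3 rose to 109% to 111% of their wild-type mean (Lamtor1, Foxo3 and Rragc) and 26 did not pass the test. These 5 of 31 are 16.1% of the members, and 33.2% of all 16497 genes tested passed the same test (18.4% higher and 14.8% lower). The test was limma on log2(normalized count + 1) of the gene sum, two-sided, with Benjamini-Hochberg adjustment over all genes and a threshold of 0.05, and log2 fold changes are given on that scale with their standard error. The median log2 fold change of the members was 0.01 and the median absolute log2 fold change 0.06, against -0.01 and 0.15 over all genes tested. The largest absolute log2 fold change among the 26 was 0.23, that of Rictor. Of all 31 tested members, 10 had an unadjusted limma p under 0.05. In bulk RNA, fewer cells of a type and less RNA per cell cannot be told apart. Scaling the libraries to equal totals in place of the authors' size factors shifted the median log2 fold change of all genes from -0.01 to -0.08 and moved the calls over all genes from 55.5% higher to 32.3% higher. Under that scaling Pik3r3 and Rps6kb1 still passed, no member was called higher (0 also at an unadjusted p under 0.05), and 8 were called lower.

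**Figure D1:**
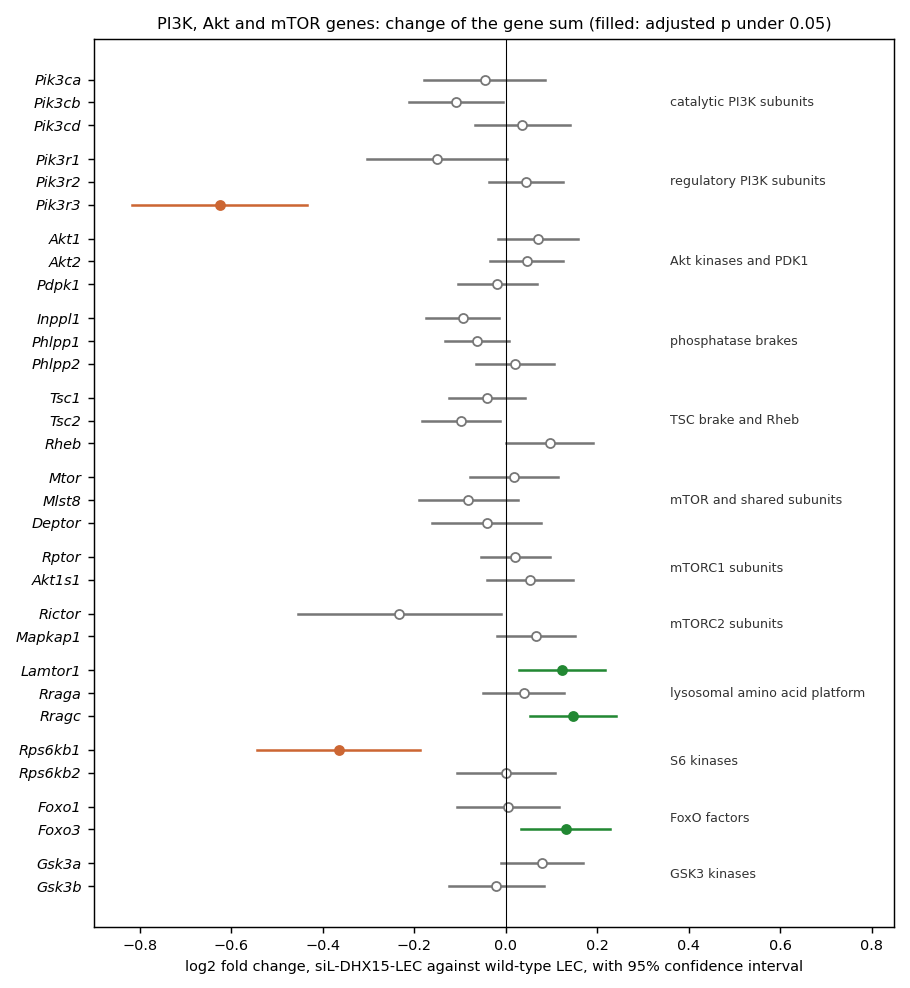
Log2 fold change of the gene sum (x axis) for the 31 tested members, grouped by role, as points with 95% confidence intervals; filled points passed the adjusted p of 0.05. Pik3r3 (-0.62) and Rps6kb1 (-0.37) lie farthest to the left, and the other 29 members lie within 0.23 of 0.

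The members spanned a wide range of abundance. Per kilobase of transcript, the measure by which genes of unequal length can be compared, Akt1 was the most abundant member in wild-type LEC, at 19266 ± 1007 normalized counts per kb (SD, n = 4). Lamtor1 followed at 7333 ± 335 and Akt1s1 at 6940 ± 308 on the same scale, and these neighbours differed by less than the sum of their SDs. Gsk3a was at 6364 ± 71, Akt2 at 5833 ± 154 and Pik3r2 at 5775 ± 128 normalized counts per kb, and the levels of Akt2 and Pik3r2 did not differ beyond their spread. The catalytic PI3K subunits were far lower. Pik3ca was at 1167, Pik3cb at 665, Pik3cd at 442 and Pik3r3 at 368 normalized counts per kb, and Foxo1, at 182, was the lowest of the tested members. Inpp5d, which encodes the lipid phosphatase SHIP1 of blood cells, had 0.9 to 6.2 normalized counts in the 8 libraries and was not tested.

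**Figure D2:**
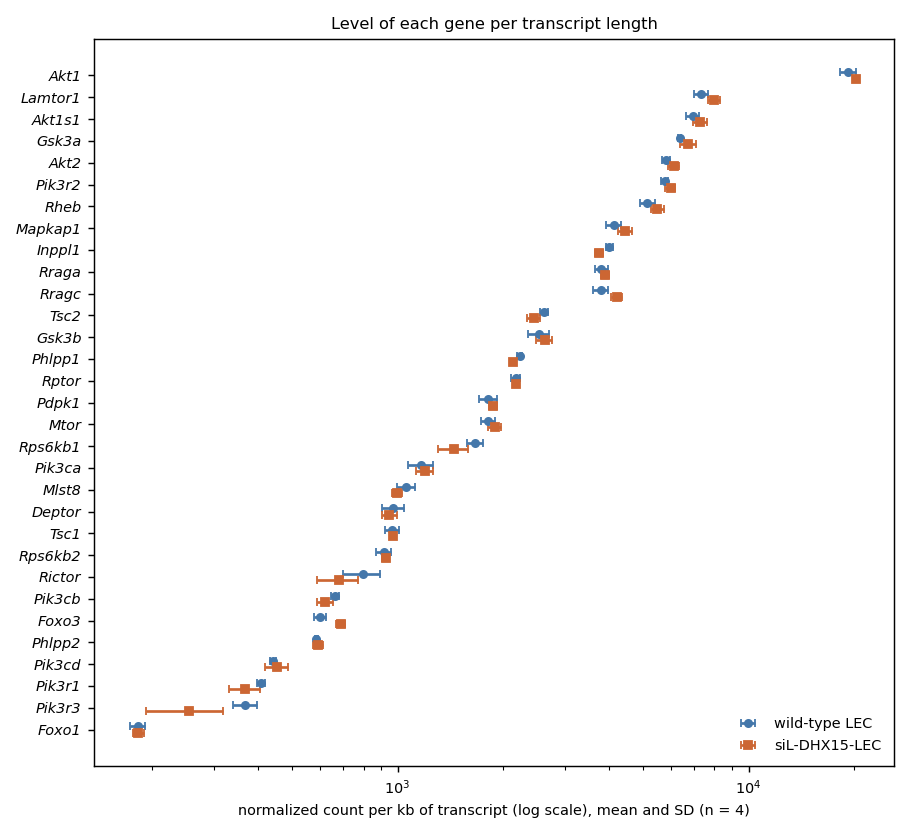
Normalized count per kb of transcript (x axis, log scale) of the 31 tested members, ordered by the wild-type mean; circles are wild-type LEC and squares siL-DHX15-LEC, with mean and SD of 4 libraries. Akt1 stands at 19266 in wild-type LEC and Foxo1 at 182, and most pairs of symbols nearly coincide.

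Of the 6 PI3K subunits among the members, Pik3r3 passed the test. Pik3r3 (ENSMUSG00000028698.13, chromosome 4, 116221618 to 116303056, GRCm38) encodes the gamma regulatory subunit, which binds phosphorylated receptors and adaptors and holds a catalytic subunit. Its normalized counts were 1624, 1513, 1556 and 1688 in wild-type LEC replicates 1 to 4 and 942, 934, 1024 and 1265 in siL-DHX15-LEC replicates 1 to 4. All 4 silenced libraries lay below all 4 wild-type libraries, with siL-DHX15-LEC replicate 4 the closest to the wild type. Its mean fell to 65.3% of the wild-type mean, a log2 fold change of -0.62 (SE 0.088, 95% confidence interval -0.82 to -0.43, limma adjusted p = 0.00036). The call held in all 19 alternative fits, in which the log2 fold change ranged from -0.72 to -0.55. Nearly all of its reads (96.5% in wild-type LEC) were assigned to the isoform Pik3r3-001, which fell by 0.65 on the log2 scale (limma adjusted p = 0.0035).

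The other 5 of these subunits did not pass. The catalytic subunits Pik3ca (alpha), Pik3cb (beta) and Pik3cd (delta, known best from leukocytes) had log2 fold changes of -0.05, -0.11 and 0.04. For Pik3cb the 95% confidence interval was -0.21 to -0.01, with a limma adjusted p of 0.099. Pik3r1, the alpha regulatory subunit, had a log2 fold change of -0.15 (95% confidence interval -0.30 to 0.00, limma adjusted p = 0.12), and it was called only when siL-DHX15-LEC replicate 4 was left out (adjusted p = 0.024). Pik3r2, the beta subunit and by far the most abundant of the 3 regulatory transcripts, had a log2 fold change of 0.04.

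Neither Akt gene passed the test. Akt1, the Akt kinase of general growth and survival, had 53797, 47465, 49963 and 50126 normalized counts in the wild-type LEC libraries. In siL-DHX15-LEC it had 52474, 53614, 53128 and 52025. The silenced libraries lay in a narrow band inside the upper part of the wild-type range, which wild-type LEC replicate 1 set. The log2 fold change of Akt1 was 0.07 (95% confidence interval -0.02 to 0.16, limma adjusted p = 0.20). Without wild-type LEC replicate 1 it was 0.10 and was called (adjusted p = 0.038). Akt2, the Akt kinase most tied to insulin action, ranged from 16230 to 17236 normalized counts in wild-type LEC and from 16617 to 18024 in siL-DHX15-LEC. The ranges overlapped through siL-DHX15-LEC replicate 4, while siL-DHX15-LEC replicates 1 to 3 (17404, 18024 and 17553) lay above every wild-type library. The log2 fold change of Akt2 was 0.05 (95% confidence interval -0.04 to 0.13, limma adjusted p = 0.36). As folds, the intervals were 0.988 to 1.12 for Akt1 and 0.976 to 1.09 for Akt2. Pdpk1, which encodes PDK1, the kinase that phosphorylates the activation loop of Akt, had a log2 fold change of -0.02 (95% confidence interval -0.10 to 0.07).

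The balance between paralogs, or between alternative complex subunits, was examined as 3 log ratios. Each was tested with an exact two-sided permutation test over the 8 libraries, for which 4 against 4 allows no p below 0.029. The log2 ratio of Akt1 to Akt2 was 1.58 ± 0.05 in wild-type LEC and 1.60 ± 0.03 in siL-DHX15-LEC (SD, n = 4, exact p = 0.43). The log2 ratio of Rptor to Rictor, the partners that define mTORC1 and mTORC2, was 0.75 ± 0.22 and 1.00 ± 0.23, with overlapping libraries (exact p = 0.20). The log2 ratio of Foxo1 to Foxo3 was -1.17 ± 0.07 and -1.30 ± 0.07 (exact p = 0.057). No ratio passed, and adjusted over the 3 ratios the exact p-values were 0.43, 0.30 and 0.17.

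The brakes on the pathway stood slightly below or near the wild-type level. The lipid phosphatase Inppl1 (SHIP2) had a log2 fold change of -0.09, the Akt phosphatases Phlpp1 and Phlpp2 of -0.06 and 0.02, and the TSC complex genes Tsc1 and Tsc2, whose products inactivate Rheb, of -0.04 and -0.10. None passed. The silenced libraries of Inppl1 (14505 to 15512 normalized counts) all lay below the wild-type ones (15733 to 16768), and those of Tsc2 (13790 to 15044) below 15264 to 16236. Their adjusted p-values by limma were 0.065 and 0.073. In edgeR's quasi-likelihood test on the recovered reads they were 0.012 and 0.017, and in DESeq2 0.030 and 0.040, so that the side of the threshold on which these 2 genes fall depends on the tool. Phlpp1 was the third brake whose groups did not overlap, with 13038 to 13557 against 13641 to 14106 normalized counts. It was called by edgeR (adjusted p = 0.029) but not by limma or DESeq2 (adjusted p = 0.15 and 0.082). With equal totals Inppl1, Phlpp1, Tsc1 and Tsc2 were called lower (limma adjusted p = 0.0042, 0.0069, 0.023 and 0.0037), and Phlpp2 was not called. Of all members tested, 7 of 31 (22.6%) had groups that did not overlap, against 30.8% of all genes tested. These were Pik3r3, Rps6kb1, Rragc, Lamtor1, Inppl1, Tsc2 and Phlpp1. Rheb itself had a log2 fold change of 0.10 (95% confidence interval 0.00 to 0.19, limma adjusted p = 0.11).

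No gene of the mTOR complexes passed the main test, and Rictor had the largest shift among them. Mtor, the kinase of both complexes, had a log2 fold change of 0.02 (95% confidence interval -0.08 to 0.11). Of the shared subunits, Mlst8, a stabilizing subunit, had -0.08 and Deptor, an inhibitor of the kinase, -0.04. The mTORC1 subunits Rptor, which recruits substrates, and Akt1s1 (PRAS40), an inhibitor relieved by Akt, had 0.02 and 0.05 on the same scale. The mTORC2 subunit Mapkap1 (SIN1) had 0.07. None of these 6 passed. Mlst8 was called lower with equal totals (log2 fold change -0.15, limma adjusted p = 0.019) and with length and GC content subtracted (-0.11, adjusted p = 0.027). Rictor, the scaffold of mTORC2, had the largest standard error of the fold change among the tested members. Its normalized counts were 6209, 8390, 7677 and 7398 in wild-type LEC and 6337, 5203, 6499 and 7249 in siL-DHX15-LEC. The ranges overlapped, with wild-type LEC replicate 1 below 3 of the 4 silenced libraries. The log2 fold change of Rictor was -0.23 (SE 0.10, 95% confidence interval -0.45 to -0.01, limma adjusted p = 0.099). It was called when wild-type LEC replicate 1 or siL-DHX15-LEC replicate 4 was left out (adjusted p = 0.026 and 0.029).

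Of the lysosomal platform that presents mTORC1 to Rheb, Rragc and Lamtor1 rose slightly. Rragc, a Rag GTPase, had 10276, 10169, 9423 and 9401 normalized counts in wild-type LEC. In siL-DHX15-LEC it had 11405, 10874, 10576 and 10626. All silenced libraries lay above all wild-type ones. The log2 fold change of Rragc was 0.15 (SE 0.043, limma adjusted p = 0.020), and it passed in 14 of 19 alternative fits. It did not pass without wild-type LEC replicate 3 or 4 or siL-DHX15-LEC replicate 1 (adjusted p = 0.069, 0.072 and 0.068), without the variance trend (0.0504) or with equal totals (0.17). Lamtor1, the Ragulator subunit that anchors the Rags to the lysosome, had 8596, 7770, 8150 and 8489 normalized counts in wild-type LEC and 8739, 9323, 9233 and 8636 in siL-DHX15-LEC. The groups did not overlap, but wild-type LEC replicate 1 and siL-DHX15-LEC replicate 4 nearly touched. The log2 fold change of Lamtor1 was 0.12 (SE 0.043, limma adjusted p = 0.047), and it passed in 8 of 19 alternative fits (adjusted p up to 0.24). Rraga, the partner GTPase of Rragc, had a log2 fold change of 0.04 and did not pass.

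Downstream, the S6 kinase gene Rps6kb1 fell and its paralog did not pass. Rps6kb1 (ENSMUSG00000020516.15, chromosome 11, 86498871 to 86544805, minus strand, GRCm38) encodes the main kinase of ribosomal protein S6. Its normalized counts were 5436, 6270, 5892 and 5881 in wild-type LEC and 4369, 3902, 4684 and 5372 in siL-DHX15-LEC. The silenced libraries were all lower, although siL-DHX15-LEC replicate 4 came within a small gap of wild-type LEC replicate 1. The mean fell to 78.1% of the wild-type mean, a log2 fold change of -0.37 (SE 0.082, 95% confidence interval -0.54 to -0.19, limma adjusted p = 0.0056). The call held in all 19 alternative fits, in which the log2 fold change ranged from -0.54 to -0.14, the latter with length and GC content subtracted, with adjusted p up to 0.029. Its paralog Rps6kb2 had 2994 ± 181 and 2992 ± 76 normalized counts (SD, n = 4) and a log2 fold change of 0.00 (95% confidence interval -0.11 to 0.11). The difference between the paralogs was not tested.

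Foxo3, a FoxO factor that Akt excludes from the nucleus, had 3571, 3683, 3517 and 3448 normalized counts in wild-type LEC and 4133, 3924, 3859 and 3668 in siL-DHX15-LEC. The highest wild-type library and the lowest silenced library crossed. The log2 fold change of Foxo3 was 0.13 (SE 0.045, limma adjusted p = 0.041), and it passed in 8 of 19 alternative fits (adjusted p up to 0.29). Foxo1, a related FoxO factor, had a log2 fold change of 0.01 (95% confidence interval -0.11 to 0.12). The Akt targets Gsk3a and Gsk3b, kinases of glycogen synthase and beta-catenin, had 0.08 and -0.02 and did not pass.

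**Figure D3:**
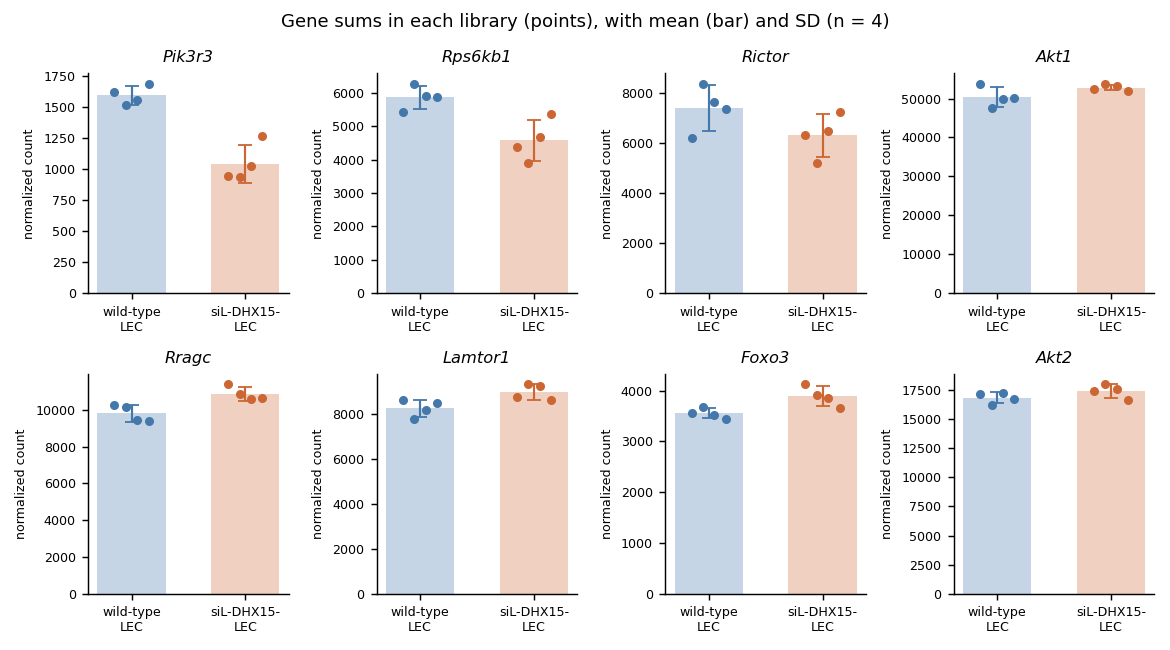
Normalized counts (y axes, each from 0) of 8 members in each library as points, with the mean as a bar and the SD as an error bar (n = 4). Pik3r3 and Rps6kb1 are lower in every silenced library, Rragc and Lamtor1 are slightly higher in every silenced library, and the ranges of Rictor, Akt1, Akt2 and Foxo3 overlap.

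Among the members the log2 fold change went with the length and the GC content of the transcript. Over the 31 tested members, the Spearman correlation of the log2 fold change was -0.54 with the length and 0.50 with the GC content of the main isoform, a description across genes that share the same libraries. Over 16452 genes with a known length the same correlations were -0.08 and 0.19. Rps6kb1, Pik3ca and Rictor, the 3 tested members of lowest GC content in their main isoform (39.2%, 41.5% and 42.5%), were each highest in wild-type LEC replicate 2 and lowest in siL-DHX15-LEC replicate 2. Mtor, also a long transcript, was highest in wild-type LEC replicate 1. When the trend with length and GC content was subtracted in each library, the log2 fold change of Pik3r3 was -0.55 (limma adjusted p = 0.00018) and that of Rps6kb1 -0.14 (adjusted p = 0.0084). That of Rictor was -0.04 (adjusted p = 0.38). Pik3ca turned from -0.05 to 0.14 and was called (adjusted p = 0.0094). The part of length and GC content in these results was not tested further.

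At the level of isoforms, 6 of the 129 member isoforms passed (limma, adjusted p under 0.05 over all isoforms), which is 4.65%, against 10.4% of all 50198 isoforms tested. At an adjusted p of 0.001 none of the 129 passed, against 0.287% of all isoforms. At that threshold edgeR called 0 of them and DESeq2 3, and 21 had an unadjusted limma p under 0.05. Of the 6, 5 fell and 1 rose. A pair of them came from the genes that fell, Pik3r3-001 above and Rps6kb1-001, the main coding isoform of Rps6kb1, which fell by 0.54 on the log2 scale (adjusted p = 0.030). Another 3 were minor isoforms below 3% of their gene. Pik3ca-201 (-0.73, adjusted p = 0.031) and Rps6kb1-002 (-0.75, adjusted p = 0.049) fell, and Foxo3-003 (0.82, adjusted p = 0.036) rose. These 3 calls were lost in 6, 13 and 8 of 17 alternative fits. The last was Tsc1-007, from a gene whose sum did not pass.

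Isoform usage, the log ratio of an isoform to the rest of its gene, was tested for 42 isoforms of 16 members in which at least 2 isoforms each held 5% or more. Of these, 6 isoforms of 3 genes (Tsc1, Gsk3b and Rps6kb1) passed (limma, adjusted p under 0.05 over all isoforms tested for usage). That is 14.3% of the isoforms, against 10.5% over all genes. Since an isoform is set against the rest of its gene, 2 isoforms of a gene are not independent. Counted by gene, 3 of 16 members had an isoform of changed usage, against 17.4% of all 6676 genes tested for usage. The models of each pair differ in an internal stretch, which is shown here from the GENCODE transcripts of the deposited isoform identifiers. They also differ outside this stretch, so it is not all that separates the isoforms of a pair. The stretch lies in annotated coding sequence for Tsc1 and Gsk3b, and for Rps6kb1 it is an intron kept in an isoform with no annotated coding sequence. Capitals mark the bases of this stretch that the first isoform of each pair has and the second lacks, with 30 bases on either side, 5′ to 3′.
Tsc1-002: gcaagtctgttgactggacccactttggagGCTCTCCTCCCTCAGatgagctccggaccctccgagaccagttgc
Tsc1-007: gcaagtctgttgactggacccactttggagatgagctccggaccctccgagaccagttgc
Gsk3b-003: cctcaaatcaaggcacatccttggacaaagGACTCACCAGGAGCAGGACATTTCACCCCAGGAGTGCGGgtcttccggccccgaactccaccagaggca
Gsk3b-001: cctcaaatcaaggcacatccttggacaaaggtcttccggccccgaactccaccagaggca
Rps6kb1-004: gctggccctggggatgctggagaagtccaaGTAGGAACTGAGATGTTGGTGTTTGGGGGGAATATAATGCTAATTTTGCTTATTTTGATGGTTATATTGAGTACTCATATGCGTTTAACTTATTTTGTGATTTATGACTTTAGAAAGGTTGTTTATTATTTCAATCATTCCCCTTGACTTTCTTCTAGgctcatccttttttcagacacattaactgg
Rps6kb1-001: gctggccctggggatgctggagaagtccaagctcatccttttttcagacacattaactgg

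Tsc1 changed in composition, while its gene sum did not pass the main test. With equal totals the sum was called lower (log2 fold change -0.11, limma adjusted p = 0.023), so a change in amount depends on the scaling. Tsc1-002 and Tsc1-007 end an intron at 2 neighbouring 3′ splice sites, 15 bases apart (chr2:28678952-28678966, GRCm38, plus strand), and the stretch ends in AG, as a 3′ splice site does. The 15 bases keep the reading frame, and both isoforms are annotated as protein coding. The first exons of the models also end at different bases. Tsc1-007, without the 15 bases, took 33.1%, 30.5%, 33.1% and 30.9% of the gene's count in wild-type LEC and 20.9%, 22.5%, 26.0% and 23.6% in siL-DHX15-LEC. No libraries overlapped. Its normalized counts fell from 2073 ± 158 to 1464 ± 116 (SD, n = 4), a log2 fold change of -0.50 (SE 0.076, limma adjusted p = 0.0055), and its usage by -0.63 (SE 0.097, adjusted p = 0.0062). Both calls held in all alternative fits, 17 for the isoform and 12 for its usage. Tsc1-002, with the 15 bases, took 50.8% ± 2.1 and 58.0% ± 2.9 of the count, a usage difference of 0.42 (adjusted p = 0.031) that was lost in 7 of 12 alternatives. Summed over the 3 isoforms with a mean of at least 10 that hold the stretch, with 1 at lower counts, the share was 65.8% ± 1.6 in wild-type LEC and 74.0% ± 2.3 in siL-DHX15-LEC. This sum includes Tsc1-004 (mean 906 normalized counts), which is annotated as a target of nonsense-mediated decay and not as protein coding. Because Tsc1-002 was its main isoform, taking that isoform alone for the gene turned the log2 fold change of Tsc1 from -0.04 to 0.15 (adjusted p = 0.039).

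In Gsk3b the isoforms differ by a cassette exon of 39 bases (chr16:38217113-38217151, GRCm38, plus strand) that lies in the coding region and also keeps the frame. Gsk3b-003, which holds it, took 11.5%, 12.2%, 12.5% and 11.4% of the count in wild-type LEC and 14.5%, 13.5%, 13.8% and 13.6% in siL-DHX15-LEC. The groups did not overlap, although the shift was only about 2 points of share. The usage of Gsk3b-001, which skips the exon, fell by 0.25 on the log2 scale (SE 0.047, limma adjusted p = 0.015), a call lost only with diffSplice among 12 alternatives (adjusted p = 0.15). The rise in usage of Gsk3b-003 (0.25, adjusted p = 0.040) was lost in 10 of 12. The 2 models also differ in their last exon, of 278 bases in Gsk3b-003 and 5583 in Gsk3b-001, so that the assigned reads need not come from the cassette exon.

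In Rps6kb1 the fall lay mainly in the counts assigned to the coding isoform. Rps6kb1-004, annotated as a retained intron, keeps an intron of 158 bases (chr11:86511667-86511824, GRCm38, minus strand) that begins with GT and ends with AG and that Rps6kb1-001 removes. Rps6kb1-001 had 3529, 4238, 3795 and 3786 normalized counts in wild-type LEC and 2499, 2111, 2700 and 3344 in siL-DHX15-LEC. Rps6kb1-004 had 1703, 1793, 1895 and 1884 and, in siL-DHX15-LEC, 1632, 1604, 1763 and 1837. The coding isoform did not overlap between the groups, and the retained-intron isoform did. The share of Rps6kb1-004 was 31.0% ± 1.7 in wild-type LEC and 37.6% ± 2.8 in siL-DHX15-LEC, and that of Rps6kb1-001 65.3% ± 1.5 and 57.8% ± 3.4 (SD, n = 4). The usage of Rps6kb1-004 was higher by 0.42 (SE 0.10, limma adjusted p = 0.036) and that of Rps6kb1-001 fell by 0.46 on the log2 scale (SE 0.10, adjusted p = 0.028). Both calls were lost with diffSplice (adjusted p = 0.089), and they were lost in 9 and 8 of 12 alternatives. Here too the last exons differ, 930 bases against 4092, and both models have 15 exons although only Rps6kb1-004 keeps the intron. The assigned reads therefore need not come from the stretch, and which isoform carried the fall was not tested.

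**Figure D4:**
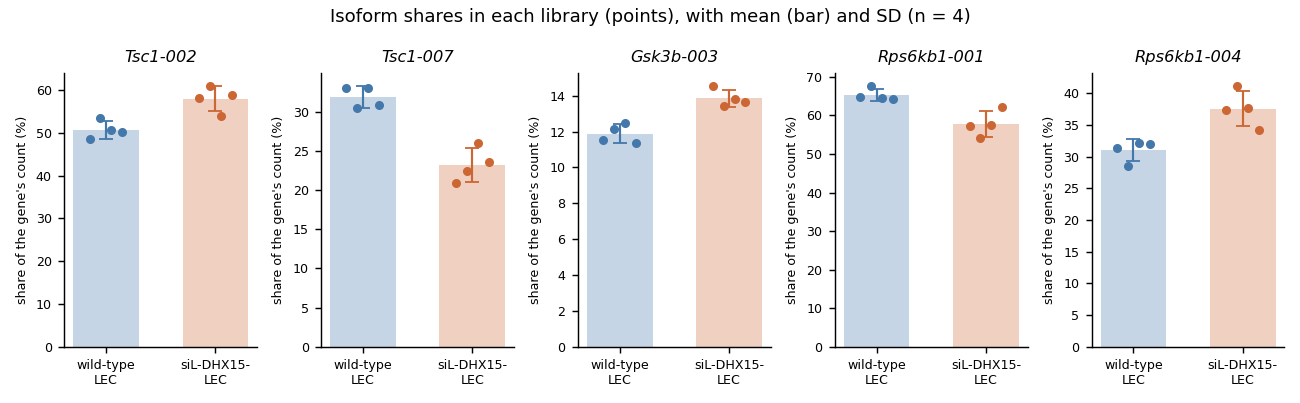
Share of the gene's normalized count (y axes in percent, each from 0) held by 5 isoforms in each library (points), with mean (bar) and SD (n = 4). Tsc1-007 and Rps6kb1-001 take a smaller share in every silenced library, and Tsc1-002, Gsk3b-003 and Rps6kb1-004 a larger one.

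The rest of the pathway was read from 8 lists of neighbouring genes, each given as counts beside the 18.4% higher and 14.8% lower of all genes tested. These lists were chosen with earlier results of these data known. Upstream of PI3K, 3 of 12 receptors and adaptors fell and 1 rose (median log2 fold change 0.05). With length and GC content subtracted 4 fell and 6 rose, with equal totals 4 fell and 0 rose, and 3 rose without wild-type LEC replicate 2 or siL-DHX15-LEC replicate 4. Irs1, the insulin receptor substrate through which insulin and IGF receptors engage the regulatory PI3K subunits, had 5389, 5580, 5781 and 5223 normalized counts in wild-type LEC and 3379, 3424, 3603 and 4001 in siL-DHX15-LEC. The groups stood far apart, and the log2 fold change of Irs1 was -0.61 (SE 0.056, limma adjusted p = 3.3e-05). Irs2, its relative, fell by 0.27 and Met, the hepatocyte growth factor receptor, by 0.24 on the log2 scale (adjusted p = 0.00075 and 0.0045). Of 14 other PI3K and phosphoinositide genes tested, 3 rose and 3 fell (median -0.03). Pik3r5, a regulatory subunit of the class controlled by G proteins, rose by 0.26 (adjusted p = 0.00058), and Pik3ip1, a membrane inhibitor of PI3K, by 0.46 (adjusted p = 0.00092). Pik3ap1, an adaptor of B cells that binds PI3K, fell by 0.76 from 138 ± 18 normalized counts (SD, n = 4, limma adjusted p = 0.00097).

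Most of the genes listed as effectors and feedback of mTORC1 rose. Of these 18 genes, 13 rose and none fell, which is 72.2% higher, with a median log2 fold change of 0.23. Because the list was chosen with earlier results of these data known, the counts describe it and do not test a direction. With equal totals 11 rose, with length and GC content subtracted 15, and without any 1 library 11 to 13, and none fell in these fits. No gene of this list was lower at an unadjusted limma p under 0.05 or in edgeR or DESeq2, which called 12 and 13 higher. Eif4ebp1, which encodes the translation repressor 4E-BP1 that mTORC1 inactivates, had 26487, 26850, 26303 and 25232 normalized counts in wild-type LEC and 38495, 39314, 37210 and 33643 in siL-DHX15-LEC. The log2 fold change of Eif4ebp1 was 0.50 (SE 0.048, limma adjusted p = 4.0e-05). Ddit4 (REDD1), a stress-induced inhibitor of mTORC1 that works through the TSC complex, had 11562, 13143, 11827 and 10854 normalized counts in wild-type LEC and 18349, 19154, 18399 and 15934 in siL-DHX15-LEC. Its log2 fold change was 0.60 (SE 0.065, limma adjusted p = 8.3e-05). Trib3, a pseudokinase that binds Akt, rose from 22268 ± 2807 to 39168 ± 4790 (SD, n = 4), a log2 fold change of 0.81 (SE 0.096, limma adjusted p = 0.00013). In all 3 genes the silenced libraries lay above every wild-type library, and siL-DHX15-LEC replicate 4 was the lowest of them. The list also holds Rps6, which as a ribosomal protein gene has near-identical pseudogenes that may share its reads.

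Of 27 amino acid sensing genes upstream of mTORC1, 3 rose and 3 fell (median 0.07). With length and GC content subtracted 8 rose and 5 fell, with equal totals 1 and 5, and leaving out 1 library gave 1 to 6 that rose and 2 to 3 that fell (6 without siL-DHX15-LEC replicate 4). Sesn2, a leucine-binding brake on mTORC1 that stress also induces, rose from 9196 ± 763 to 13003 ± 1058 normalized counts, a log2 fold change of 0.50 (adjusted p = 0.00030). Its relative Sesn3 fell by 0.19 and Gatsl2 (Castor2), of the family of the arginine sensor, by 0.30 (adjusted p = 0.0087 and 0.0015). With length and GC content subtracted Sesn3 was at -0.07 and was not called (adjusted p = 0.14). Of 9 mTORC2 partners and related kinases tested, 2 rose and 2 fell (median 0.03, with 0 to 3 that fell when 1 library was left out), with Prkca, a protein kinase C that depends on mTORC2, at 0.20, Tti2, a chaperone cofactor of mTOR, at 0.18 and Sgk1, a kinase activated by mTORC2, at -0.22. Of the 9 genes of AMPK and its activator LKB1, 4 fell and none rose (median -0.08). No gene of this list was higher at an unadjusted p under 0.05, and edgeR and DESeq2 called 5 and 4 lower and 0 higher. Prkab2, a beta subunit of AMPK, fell by 0.29, Prkaa1, a catalytic subunit, by 0.24 and Prkaa2, the other catalytic subunit, by 0.48 on the log2 scale (adjusted p = 0.00014, 0.0030 and 0.0051). With length and GC content subtracted Prkaa1 was at -0.05 and Prkaa2 at -0.25, and neither was called (adjusted p = 0.45 and 0.051). Of 13 Akt regulators and substrates tested, 3 rose and 5 fell (median -0.10). Them4 (CTMP), an Akt-binding protein, rose by 0.56, Cdkn1a, the cell cycle inhibitor p21 that Akt phosphorylates, by 0.44, and Tbc1d1, an Akt substrate in glucose transport, fell by 0.17. Of 15 FoxO target and related genes tested, 6 rose and 3 fell, and the median was -0.08, opposite in sign to the majority of the calls. With equal totals 4 rose and 6 fell, and with edgeR 4 and 5, so the list has no direction that holds across scalings. The list also holds the factors Foxo4 and Foxo6, and 1 of the 3 that fell was Foxo6 (-0.31, adjusted p = 0.0048). Without these 2 factors, left out after the values were seen, 6 of 13 rose and 2 fell, with a median of -0.08. For these 13, 4 rose and 5 fell with equal totals, and 4 and 4 with edgeR. Gadd45a, a stress and growth arrest gene, rose from 3713 ± 951 to 7783 ± 1151 normalized counts, a log2 fold change of 1.09 (adjusted p = 0.00027), the cyclin gene Ccng2 by 0.39 and catalase (Cat) by 0.17.

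**Figure D5:**
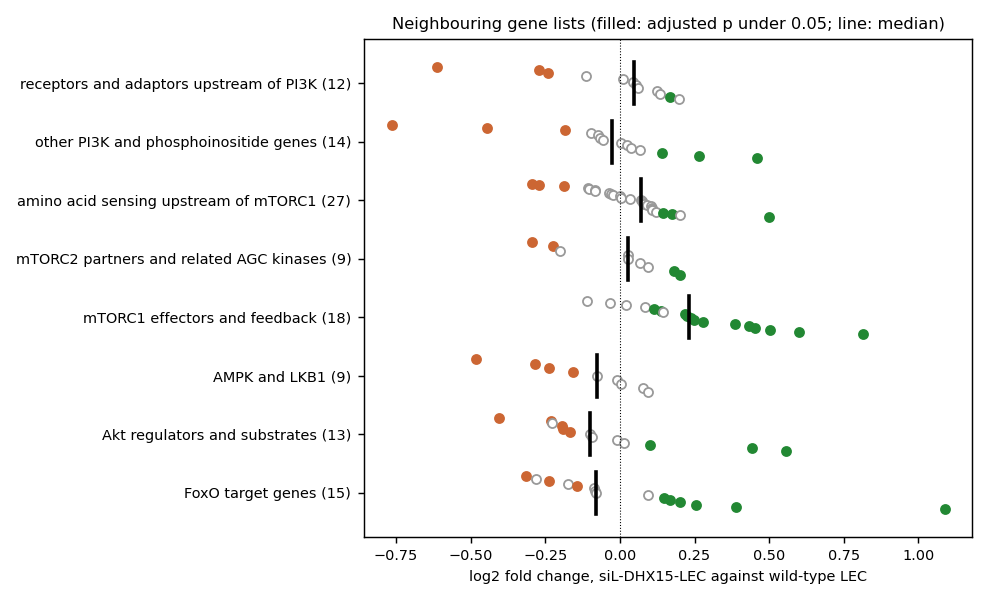
Log2 fold change (x axis) of every tested gene in 8 lists around the pathway, with the number of genes tested in parentheses; filled points passed the adjusted p of 0.05 and the vertical bar is the list's median. In the list of mTORC1 effectors and feedback genes 13 of 18 points are filled to the right of 0, and in the AMPK list 4 of 9 are filled to the left.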

How the data were processed

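The data were poly-A RNA-seq of 8 libraries. Reads were mapped by the authors with STAR 2.5.2a on GRCm38, isoforms were quantified with RSEM 1.2.28 using GENCODE M12, and DESeq2 1.18 size factors were applied. The deposited signal is thus a normalized count for each isoform in each library. In each library 100% of them were whole multiples (within 0.1) of the value of 1 read, and the reads so recovered were used for edgeR 4.0.16 and DESeq2 1.42.0 only. These 2 tests called 5640 and 5519 genes against 5478 for limma. The run list of the sequencing center gave lanes and read pairs (99.4 to 194 M).

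A gene's value was the sum of its isoforms. Features with a mean of at least 10 were tested with limma 3.58.1 under R 4.3.3, with a variance trend and a pseudocount of 1 on the log2 scale, checked on simulated data. Members were named by the rule that all 32 are given by role, those that pass in full. For each wider list up to 3 called genes with the smallest p were named. The members and lists were chosen with earlier results of these data known. Lengths, exons and sequences came from GENCODE M21 transcripts of the same identifiers. The alternatives were a pseudocount of 0.5 or 5, other filters, TMM or equal totals, no trend, the main isoform, subtraction of length and GC trends, edgeR, DESeq2, diffSplice, and leaving out each library.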

Additional observations from a re-analysis of the deposited data

Results flagged for a closer look

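In 62 groups of 4 libraries (31 members in each condition), 4 had a library whose gap to the nearest other took up most of the range of the group, and chance flags about 1 in 20 groups. Tsc2 had 13790 normalized counts in siL-DHX15-LEC replicate 4 and 14959 to 15044 in the others of its group. Inppl1 had 14505 in the same library and 15356 to 15512 in the others. Tsc1 had 6476 in siL-DHX15-LEC replicate 1 and 6239 to 6269 in the others. Mapkap1 had 8204 in wild-type LEC replicate 1 and 7633 to 7716 in the others.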

How the results depend on the processing

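No paired analysis was possible because the labels give library identifiers and no replicate numbers shared between the groups. The number of changed genes was 5478 at an adjusted p of 0.05, 3034 at 0.01 and 1060 at 0.001. The number of changed members was 5, and it was 3 without a filter, 8 with equal totals, 2 without the variance trend, 8 with length and GC content subtracted, 2 at a threshold of 0.01 and 1 at 0.001. The number of changed isoforms was 5242, and it was 2638 without the trend, 8068 with DESeq2 and 144 at a threshold of 0.001. For members it was 6, with 3, 14 and 0 under the same settings (at 0.001 edgeR called 0 and DESeq2 3, and 21 had an unadjusted p under 0.05). Member isoforms of changed usage numbered 6, and 2 with diffSplice.

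Leaving out 1 library at a time gave 4010 to 6543 genes, 2 to 9 members, 2920 to 5891 isoforms, 2 to 7 member isoforms, 1166 to 1630 isoforms of changed usage and 2 to 5 among the members. The difference of the log2 ratios was 0.010 to 0.048 for Akt1 to Akt2, 0.15 to 0.35 for Rptor to Rictor and -0.16 to -0.11 for Foxo1 to Foxo3.

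Member values that changed sign were small and, except for Pik3ca and Tsc1, uncalled on both sides. With equal totals the log2 fold change was -0.030 for Pik3cd, -0.023 for Pik3r2, -0.022 for Akt2, -0.047 for Phlpp2, -0.049 for Mtor, -0.046 for Rptor, -0.014 for Akt1s1, -0.00023 for Mapkap1, -0.028 for Rraga, -0.067 for Rps6kb2 and -0.062 for Foxo1. With length and GC content subtracted it was 0.14 for Pik3ca, 0.052 for Pdpk1, 0.083 for Deptor, 0.062 for Gsk3b, -0.022 for Rraga and -0.00086 for Rps6kb2. With edgeR it was -0.0010 for Phlpp2, -0.0041 for Mtor, -0.0015 for Rptor, -0.022 for Rps6kb2 and -0.020 for Foxo1, and with DESeq2 -0.0073 for Rps6kb2 and -0.0069 for Foxo1. With the main isoform it was 0.15 for Tsc1. Leaving out 1 library gave -0.092 to 0.0018 for Pik3ca, -0.036 to 0.0060 for Pdpk1, -0.00069 to 0.043 for Phlpp2, -0.0029 to 0.050 for Mtor, -0.069 to 0.0080 for Deptor, -0.040 to 0.030 for Rps6kb2, -0.029 to 0.027 for Foxo1 and -0.044 to 0.018 for Gsk3b. The cause of these changes was not tested.

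Among the member genes only Inpp5d had too few counts to test. An isoform's count is an estimate over reads that isoforms share, and it is least certain for the minor isoforms.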
